A study of Danio rerio with 6 samples.

Results

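The 5 genes described here encode enzymes that remove or make retinoic acid (RA): cyp26a1, cyp26b1 and cyp26c1, dhrs3a, and aldh1a2. They are covered by all probe sets of the Affymetrix Zebrafish Genome Array whose single gene symbol is one of these 5, which gave 8 of the 15617 probe sets, and 5 of the 8793 genes named by a single symbol. There was 1 probe set for each gene except cyp26b1, which had 4, called A to D here from the brightest to the dimmest. The arrays measured RNA from whole dissected eyes of wild-type zebrafish embryos of the outbred SciH line at 75 hpf (hours post-fertilization), 64 eyes to a pool. Embryos of 3 clutches, numbered 1, 3 and 4, were each divided between DMSO alone (0.1%, the control) and 0.3 µM all-trans RA in the same DMSO from 48 to 75 hpf, giving 3 DMSO and 3 RA arrays, 1 for each pool. The study compared them to find genes of the embryonic eye that respond to exogenous RA. It had listed cyp26a1, cyp26b1, dhrs3a and aldh1a2 among the genes it chose on these same arrays, so the direction of these genes here is not independent evidence. The study also reported cyp26b1 as higher by qPCR. In array data of whole embryos and of larval hearts it found cyp26a1, cyp26b1 and dhrs3a raised by RA.

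RA is made from vitamin A in successive oxidations: retinol dehydrogenases turn retinol into retinaldehyde, and retinaldehyde dehydrogenases of the Aldh1a family, Aldh1a2 among them, turn retinaldehyde into RA. Enzymes of the Cyp26 family, which are cytochromes P450, hydroxylate RA and so clear it, while Dhrs3 reduces retinaldehyde back to retinol and lowers the supply of the precursor. In the developing vertebrate retina, RA-making zones lie dorsally and ventrally, and Cyp26 enzymes mark a zone between them where RA is low. RA acts by binding nuclear receptors that switch target genes on or off, and cyp26a1 and dhrs3 are textbook examples of genes that it switches on.

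Values below are linear signals as deposited. Signals of different probe sets have no common scale, so levels are compared only between arrays for the same probe set, and sums over markers, which follow their brightest probe sets, are given as a description. A signal at or under 13.2, the highest signal on any array of 87 control probe sets without a target in the eye, is called background. The test was limma on log2 signals over 15555 probe sets, called at a false discovery rate (FDR) of 10%. The arrays differed little in overall level (median signals of 39.5 to 43.5, with 67.1% to 69.8% of probe sets above background). As a gauge of RNA quality, probe sets at the 3' end of acta1 were 12.0 to 64.5 times as bright as those at its 5' end in DMSO pools and 5.30 to 11.7 times in RA pools, and for gapdh the ratios were 1.48 to 2.58 and 1.32 to 1.75. The part of this difference in the results was not tested. All 13 measured photoreceptor markers, which define the labelled tissue, were above background on every array.

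Exogenous RA raised the signals of cyp26a1, dhrs3a and cyp26b1 in the embryonic eye, by 12.97-fold, 15.4-fold and 26.2-fold for the brightest probe set of each gene. All 4 probe sets of cyp26b1 and the single probe sets of cyp26a1 and dhrs3a passed the test, while those of cyp26c1 and aldh1a2 did not. Thus 6 of the 8 probe sets were called, all higher, where 0.842% of all probe sets were called and 0.604% were called higher and 0.238% lower. DMSO and RA signals did not overlap for any of the 8 (7 higher and 1 lower with RA), whereas 15.3% of all probe sets did not overlap, 6.98% with RA higher and 8.28% with RA lower. The exact permutation test over the arrays (two-sided) gave p = 0.1 for each of the 8, which is the smallest value that 3 arrays against 3 can reach. In pools of whole eyes, a change in the number of cells that express a gene cannot be told apart from a change in RNA per cell.

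**Figure D1:**
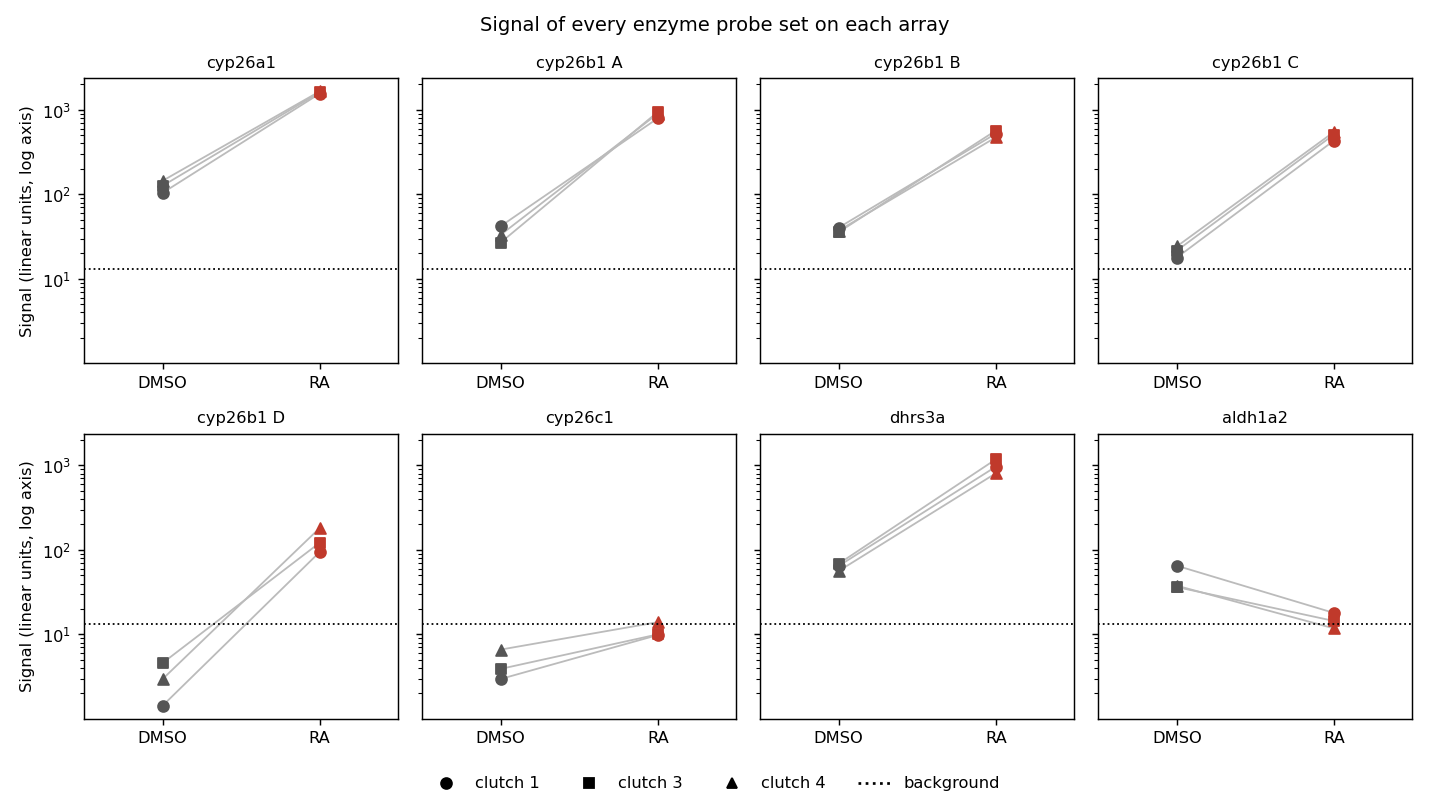
Signal (linear units on a log axis) of each of the 8 probe sets in DMSO and RA pools, with a symbol for each clutch (circle 1, square 3, triangle 4), a line joining the 2 pools of a clutch, and a dotted line at the background of 13.2. The RA pools of cyp26a1, cyp26b1 and dhrs3a lie well above the DMSO pools of every clutch, those of cyp26c1 lie close to background, and those of aldh1a2 fall towards it.

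The RA hydroxylase gene cyp26a1 was measured by 1 probe set. In DMSO eyes it gave 104, 126 and 145 in clutches 1, 3 and 4. In RA-treated eyes it gave 1557, 1611 and 1652. The treated pools were nearly level with each other: the standard deviation (SD) of their log2 signals was 0.04, where 0.19 was the median of the 9791 probe sets that exceeded background on all 6 arrays. The DMSO pools had an SD of 0.24, close to the median of 0.25 for DMSO. The mean rose from 125 ± 20.3 to 1607 ± 47.6 (SD, n = 3 pools), 12.97-fold (95% confidence interval 9.56 to 17.6; adjusted p = 0.00094). Within clutches 1, 3 and 4 the rise was 15.0-fold, 12.8-fold and 11.4-fold.

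The second RA hydroxylase gene, cyp26b1, had 4 probe sets, which all rose but not to the same extent. Probe set A gave 42.0, 26.9 and 33.2 in DMSO and 794, 944 and 902 in RA pools of clutches 1, 3 and 4. Its rise was 26.2-fold (95% interval 18.3 to 37.6; adjusted p = 0.00073), and by clutch it ranged from 18.9-fold in clutch 1 to 35.1-fold in clutch 3. The DMSO pools varied more than the RA pools, with log2 SDs of 0.32 and 0.13. Probe set C, at lower signals, gave 17.9, 21.6 and 24.2 in DMSO and 432, 509 and 547 in RA pools. Here the 3 clutches were close, with rises of 24.2-fold, 23.6-fold and 22.6-fold, and the fitted rise was 23.5-fold (17.0 to 32.5; adjusted p = 0.00063).

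Probe set B of cyp26b1 showed a smaller rise. It gave 40.4, 35.7 and 37.2 in DMSO and 522, 568 and 473 in RA pools, 13.8-fold higher (95% interval 10.5 to 18.04; adjusted p = 0.00063). Probe set D, the dimmest, was at background in all DMSO pools, with 1.44, 4.59 and 2.97. In RA pools it gave 94.5, 122 and 182, and it was therefore at least 9.69-fold higher, measured from the background. The limma adjusted p was 0.062 with signals floored at background and 0.0088 with the signals as deposited. The treated pools of probe set D were also the most scattered of the cyp26b1 probe sets, with a log2 SD of 0.48. The call of probe set D was lost in the comparison without clutch 4 (adjusted p = 0.20), which left 2 pools in each group. With any single array left out all 4 cyp26b1 probe sets still passed.

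No probe of cyp26c1, the third gene of the family, rose clearly above background. Its probe set gave 2.97, 3.91 and 6.61 in DMSO and 9.83, 10.01 and 14.0 in RA pools of clutches 1, 3 and 4. The treated pools were higher in every clutch, but only the RA pool of clutch 4 exceeded 13.2, so no fold is given. It did not pass (adjusted p = 0.24), and its log2 difference was 0.03 when signals were floored at background (adjusted p = 1.0).

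The gene dhrs3a, which encodes a reductase that returns retinaldehyde to retinol, rose in all clutches too. Its probe set gave 64.7, 68.6 and 56.3 in DMSO eyes of clutches 1, 3 and 4. The RA pools gave 964, 1179 and 806, none near the DMSO range. The mean went from 63.2 ± 6.28 to 983 ± 187 (SD, n = 3), a 15.4-fold rise (95% interval 10.97 to 21.7; adjusted p = 0.00094). By clutch it was 14.9-fold, 17.2-fold and 14.3-fold. The signal of the RA pools varied more than that of cyp26a1, with a log2 SD of 0.27 against 0.04.

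The gene of the RA-making enzyme, aldh1a2, had lower signals with RA in every clutch without passing the test. The study, with another test (SAM) and RMA values, reported this gene as significantly lower. The probe set of aldh1a2 gave 64.9, 36.3 and 37.7 in DMSO and 17.95, 14.4 and 11.8 in RA pools. The DMSO pool of clutch 1 was the highest by far, and the RA pool of clutch 4 lay at background. The log2 fold change was -1.62 (standard error 0.30, 95% interval -2.34 to -0.91, adjusted p = 0.12), which corresponds to 3.08-fold lower with an interval of 1.88 to 5.05. By clutch the log2 differences were -1.85, -1.33 and -1.68. The DMSO pool of clutch 1 also had the acta1 ratio of 64.5, and without that array the log2 fold change was -1.35 (adjusted p = 0.15). The threshold was met with a mean-variance trend (adjusted p = 0.027), array weights (0.029) and 16 added to every signal (0.090). It was also met among probe sets above background on at least 3 arrays (0.027). It was not met with the clutch as a block (0.16), median centring (0.16), quantile normalization (0.17) or signals floored at background (0.24). Nor was it met with any single array (0.15 to 0.38) or any clutch (0.19 to 0.59) left out.

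**Figure D2:**
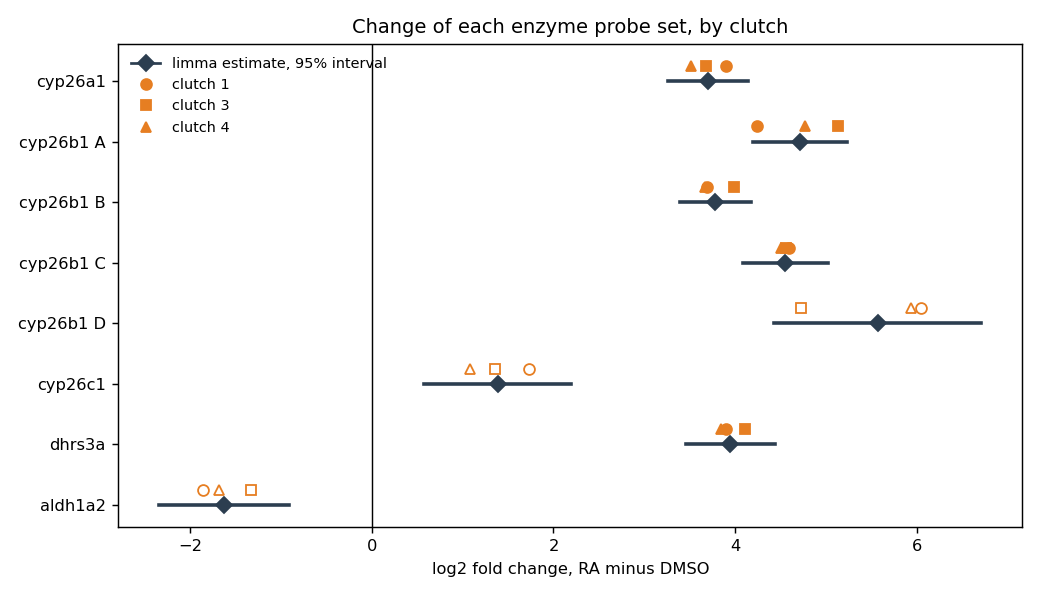
log2 fold change (RA minus DMSO) of each probe set, as the limma estimate with its 95% interval (diamond and bar) and as the difference within each of the 3 clutches (circle, square and triangle, open where the probe set was at background on 1 or more arrays). Every clutch lies to the right of 0 for the cyp26 genes and dhrs3a and to the left for aldh1a2, at -1.85, -1.33 and -1.68.

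Whether the genes changed by unequal amounts was tested on the ratio of 2 probe sets within each array, for 12 pairs: 6 between the brightest probe sets of cyp26a1, cyp26b1, dhrs3a and aldh1a2, and 6 among the probe sets of cyp26b1. The smallest exact permutation p is again 0.1, and adjusting over the 12 pairs cannot lower it, so none could pass. Pairs that reached 0.1 had an adjusted p of 0.13 here. The log2 rise of cyp26b1 (probe set A) exceeded that of cyp26a1 by 0.34, 1.46 and 1.25 in clutches 1, 3 and 4, on average 1.02 (exact p = 0.1). It exceeded that of dhrs3a by 0.77 on average (0.34 to 1.03 by clutch, exact p = 0.1). Between cyp26a1 and dhrs3a the difference was -0.25 on average (-0.43 to 0.005 by clutch, exact p = 0.5). Probe sets A and B of cyp26b1 itself differed by 0.93 (0.55 to 1.14 by clutch, exact p = 0.1), about as much as cyp26b1 and cyp26a1 did. The log2 fold change of probe set B, 3.78 ± 0.16 (standard error), lay next to the 3.70 ± 0.18 of cyp26a1. The size of the gap between these hydroxylase genes therefore depended on the probe set read. All 3 rising genes differed from aldh1a2 by 5.32 to 6.34 on the log2 scale (exact p = 0.1 each). That these ratios did not overlap between groups was fixed beforehand, since each gene alone did not overlap and aldh1a2 went the other way.

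Ranked by log2 fold change among the 9791 probe sets that exceeded background on all 6 arrays, 5 probe sets of these genes came at 2 to 6. The order was probe sets A and C of cyp26b1 (4.71 and 4.55), dhrs3a (3.95), probe set B of cyp26b1 (3.78) and cyp26a1 (3.70). Rank 1 was the cone opsin gene opn1lw1, at 5.32. The 95% intervals of neighbours in this order overlapped. The median log2 fold change of these 9791 probe sets was -0.008 and the median standard error 0.21. The ranking left out probe sets at background on 1 or more arrays. Among those left out, hoxb8a and hoxb5b rose at least 17.6-fold and 15.1-fold with RA, measured from the background.

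**Figure D3:**
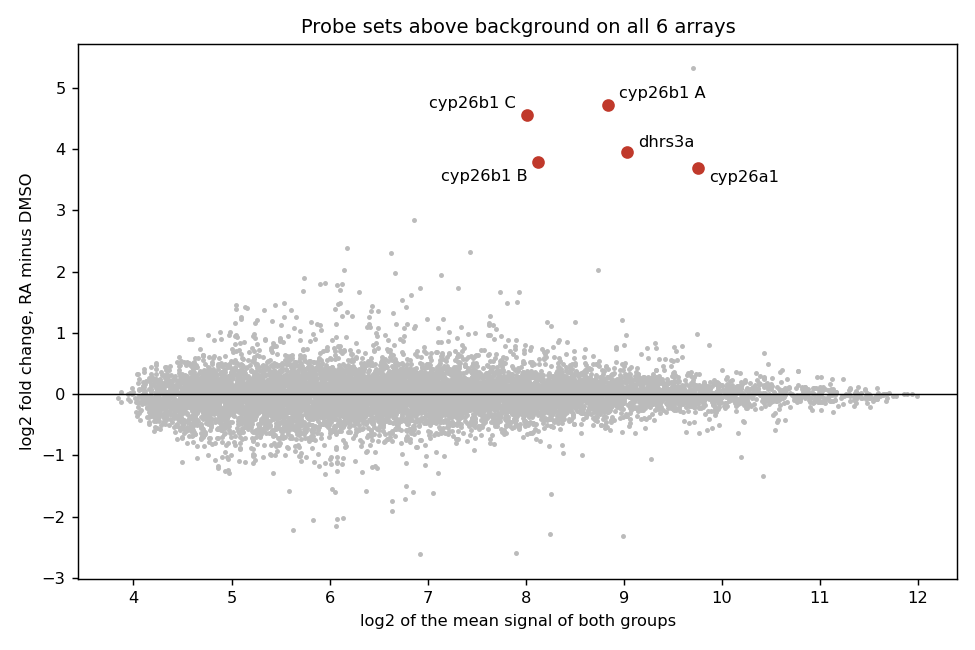
log2 fold change (RA minus DMSO) against the log2 of the mean signal of both groups, a grey point for each of the 9791 probe sets that exceeded background on every array. The 5 red points, 3 of cyp26b1 and 1 each of cyp26a1 and dhrs3a, lie between 3.70 and 4.71, and the single grey point above them is opn1lw1 at 5.32.

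The other enzymes of retinol, retinaldehyde and RA on the array did not change past the threshold. Of 33 such genes listed, 15 had a probe set with their symbol, among them retinol and alcohol dehydrogenases, the carotenoid-cleaving enzyme bco1 and the vitamin A desaturase cyp27c1. None of the 15 passed with limma, where 0.842% of all probe sets did. At an unadjusted p under 0.05 there was 1 higher and none lower, or 1 of 15, where 8.76% of all probe sets had such a p (4.17% higher and 4.59% lower). Without overlap 1 was higher (cyp27c1) and 3 lower (rdh10b, dhrs9 and sdr16c5b), beside 6.98% and 8.28% of all probe sets. Of these, rdh10b was above background in only 1 RA pool. The median log2 fold change of the 15 was -0.21, against -0.005 over all probe sets tested. The one with an unadjusted p under 0.05, cyp27c1, which converts vitamin A1 to vitamin A2, gave 63.4 ± 10.2 in DMSO and 110 ± 15.8 in RA-treated eyes (SD, n = 3), a log2 difference of 0.80 that was seen in all 3 clutches (standard error 0.20; adjusted p = 0.28). The next largest differences above background were those of bco1 (-0.61, adjusted p = 0.77), sdr16c5b (-0.49, adjusted p = 0.62) and dhrs9 (-0.43, adjusted p = 0.70). The 95% intervals of these 3 included 0 and ended at 0.30 or lower, far from that of cyp26a1, which began at 3.26. The gene aldh1a3 and the second dhrs3 gene, dhrs3b, were not analysed here.

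**Figure D4:**
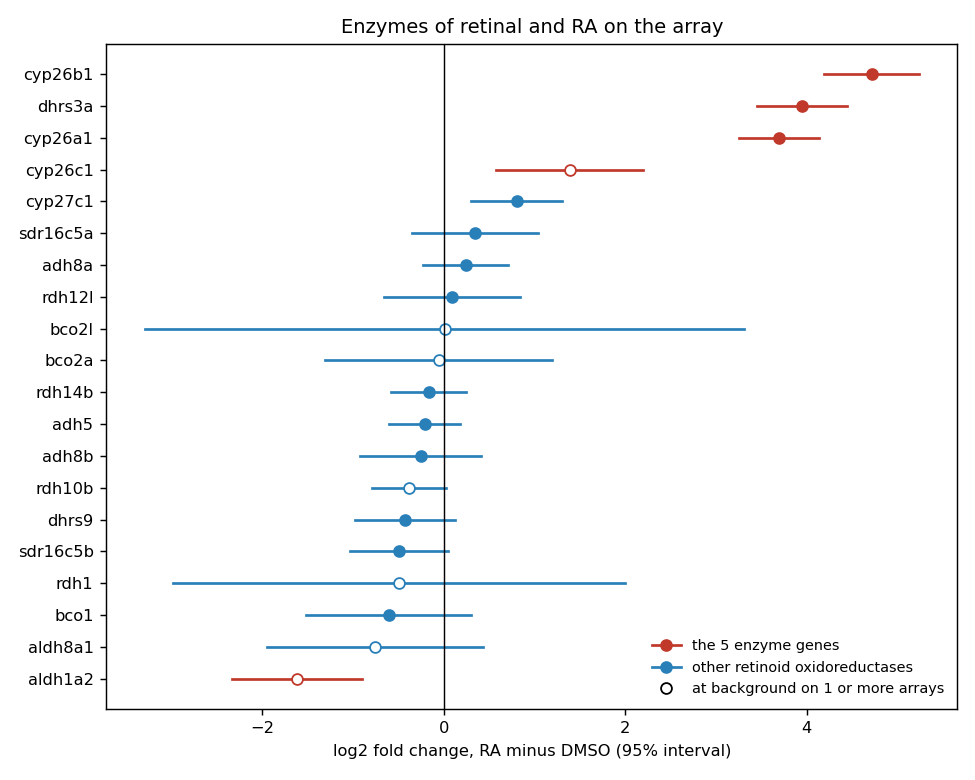
log2 fold change (RA minus DMSO) with its 95% interval for the brightest probe set of each of the 5 enzyme genes (red) and of 15 other retinoid oxidoreductases (blue), open where a probe set was at background on 1 or more arrays. cyp26b1, dhrs3a and cyp26a1 stand apart at 3.70 to 4.71, whereas the blue genes lie between -0.76 and 0.80.

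Further steps of the retinoid pathway gave no call either. None of 10 measured genes of retinoid carriers and uptake, of 3 of retinyl ester and visual cycle enzymes, or of 10 of retinoid receptors and corepressors passed with limma. Over all probe sets 0.842% passed, and lists this short can hold no call at that share. The study, with another test (SAM), listed nrip1b and, at an FDR of 20%, rxrga as higher. Here their log2 fold changes were 0.66 and 0.83 (limma adjusted p = 0.24 and 0.25). At an unadjusted p under 0.05 the carriers had 2 higher and 2 lower, the receptors and corepressors 4 higher and none lower. The ester and visual cycle enzymes had none, beside the 8.76% of all probe sets (4.17% higher and 4.59% lower). The median log2 fold change was 0.11 for the carriers, -0.56 for the ester and visual cycle enzymes, and 0.32 for the receptors and corepressors. Over the 9, 2 and 5 of their genes above background on all arrays it was 0.24, -0.29 and 0.51.

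The genes that lie beside the enzyme genes were measured too, up to 2 on each side among the nearest 10. Of 20 such genes, 4 did not overlap between DMSO and RA (exoc6b, badb and nrbf2b higher, wdr76 lower), beside 15.3% of all probe sets. Only 1 passed, where 0.842% of all probe sets did: exoc6b, an exocyst subunit gene next to cyp26b1 in the genome. It gave 15.9 ± 3.03 in DMSO, where 1 pool was at background, and 126 ± 27.0 with RA (SD, n = 3). Its log2 rise was 2.98 (standard error 0.24; adjusted p = 0.0080; 0.070 with the clutch as a block), and its call was lost in the comparisons without clutch 3 (0.13) or clutch 4 (0.18). On the far side of exoc6b, badb, a gene of the Bcl2 family, gave 22.9 ± 2.70 and 43.8 ± 7.77 without passing (log2 fold change 0.93, adjusted p = 0.19). Beside cyp26a1, nrbf2b (0.21, adjusted p = 0.82), reep3b (0.15, adjusted p = 0.93) and tubgcp2 (0.01, adjusted p = 1.0) had small log2 differences, and the exocyst gene exoc6, its direct neighbour, lay at background on all arrays. Beside dhrs3a the 4 measured genes ranged from -0.45 (lactbl1a) to 0.13 (igsf21b), with rcc2 and eif4g3b between them. Beside cyp26c1 the genes kif11, dicer1, p4ha1b and actn2b gave -0.24, 0.19, 0.21 and -0.09. Beside aldh1a2, wdr76 gave 21.5 ± 6.33 and 11.1 ± 2.23 (-0.93, adjusted p = 0.38) and was above background in only 1 RA pool. Of the others beside aldh1a2, harbi2 gave 0.41 (adjusted p = 0.63) and aqp9b 0.20, and lipca was at background on all arrays. The same held for dysf beside cyp26b1, where cd99l2 gave 0.09.

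**Figure D5:**
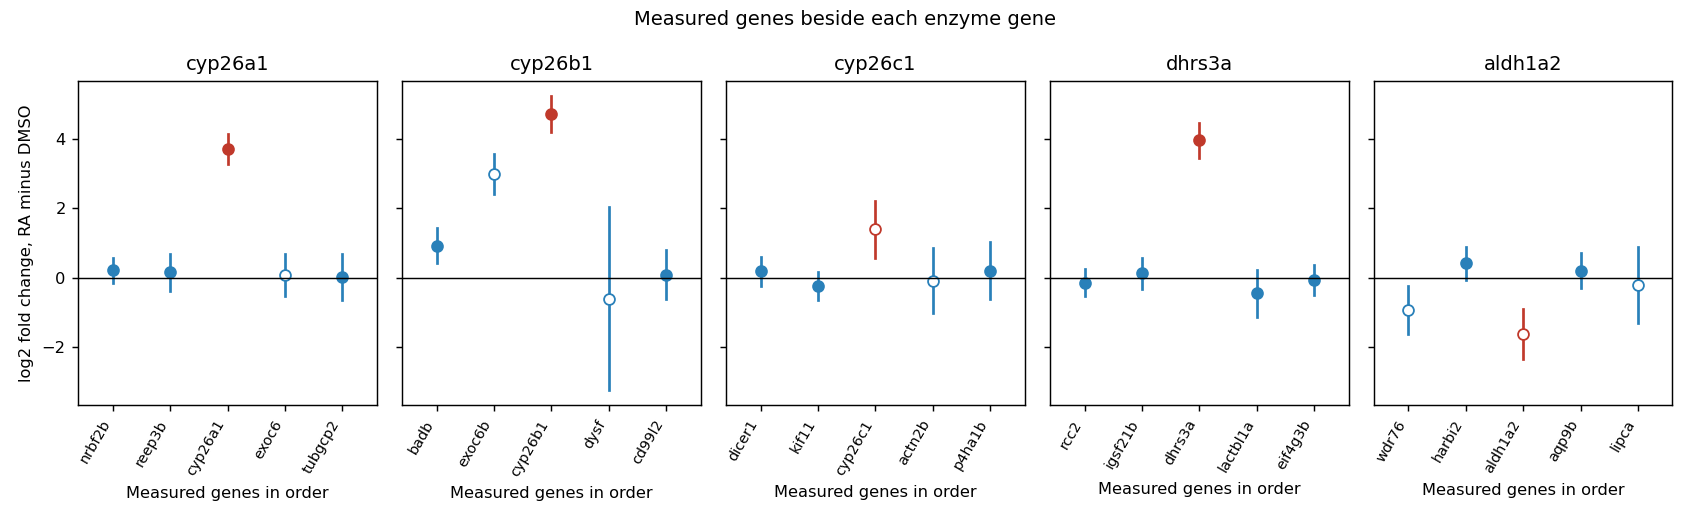
log2 fold change (RA minus DMSO) with its 95% interval for each enzyme gene (red) and up to 2 measured genes on each side (blue), in their order along the chromosome, open where a probe set was at background on 1 or more arrays. exoc6b beside cyp26b1, at 2.98, is the only blue gene that passed the test.

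The signals of some other genes followed the enzyme genes closely over the 6 arrays. Likeness was measured by Pearson's r of log2 signals, among 187 genes above background on all arrays of at least 1 group and with an absolute log2 fold change of at least 1. It is a description, in which the difference between the groups carries most of r. For cyp26a1 the closest were hoxb6b (r = 0.9991), gata3 (0.9988) and opn1lw1 (0.9956). For cyp26b1 they were hoxb5b (0.9988), nr2f5 (0.9975) and hoxb8a (0.9932), and for dhrs3a fxyd11 (0.9994), hoxb5a (0.9946) and hoxb5b (0.9932). All of these passed the test and rose with RA, but the hox genes among them were at background in every DMSO pool, so their r rests partly on values without a measured level. With signals floored at background, gata3, nr2f5 and fxyd11 came first for cyp26a1, cyp26b1 and dhrs3a, while hoxb8a went to place 22 for cyp26b1 and hoxb5a and hoxb5b to 21 and 14 for dhrs3a. For aldh1a2 the closest were chtf8 (0.9899), the mesenchyme homeobox gene prrx1a (0.9860) and the cartilage matrix gene matn1 (0.9843), of which only matn1 passed. It was at background in all RA pools and went to place 8 with the floor, while chtf8 and prrx1a kept the first places.

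Markers of other tissues that a dissected eye can carry along also moved in part. Of 12 measured markers of periocular mesenchyme and cartilage, only matn1 and matn4 passed, both lower with RA, where 0.238% of all probe sets were called lower. Without overlap 4 of the 12 were lower and 2 higher (foxc1a and foxc1b), beside 8.28% and 6.98% of all probe sets. The lower ones were matn1, matn4, prrx1a and prrx1b. The log2 fold changes of prrx1a and prrx1b were -1.60 and -1.59 (limma adjusted p = 0.11 and 0.12). The study, with SAM, listed both as lower. The summed signal of the 12 was 2770 to 3172 in DMSO and 2262 to 2659 in RA pools. The gene sox9a was at background on all arrays, and the part of these markers in the lower aldh1a2 signal was not tested. Of 9 measured liver markers, fgg and cp passed, both higher with RA, where 0.604% of all probe sets were called higher. Without overlap 3 of the 9 were higher and none lower, beside 6.98% and 8.28% of all probe sets. In DMSO, fgg was at background in every pool and cp above it in only 1. Means of fgg were 1.61 in DMSO and 148 in RA pools. The summed signal of the 9 was 87.0 to 157 in DMSO and 192 to 432 in RA pools. The liver-defining gene fabp10a was at background on all 6 arrays, as were fga, fgb and ahsg1. Of 12 measured muscle and heart markers, only myl7 passed, beside 0.604% of all probe sets called higher. The signal of myl7 was higher with RA and at background in every DMSO pool. Without overlap 4 of the 12 were higher and 3 lower (tnnt2a, tnnt3b and tnni2a.4), beside 6.98% and 8.28% of all probe sets. The higher ones were myl7, myog, myod1 and ckmb. The study, with SAM, listed myog as higher. Here its log2 fold change was 1.36 (limma adjusted p = 0.21). The summed signal of the 12 was 1569 to 1719 in DMSO and 1617 to 1843 with RA, with myf5 at background on all arrays. The summed signal of 11 blood and vessel markers was 2459 to 3258 in DMSO and 1855 to 2406 with RA, most of it from the globin gene hbae3 (means of 1794 and 1182). Single genes of this list went either way, and none passed. Without overlap 1 of the 11 was lower (hbae3) and 3 higher (kdrl, tie1 and lyz), beside 8.28% and 6.98% of all probe sets. Of these, tie1 was at background on all arrays, as were gata1a and epb41b of the same list. The 10 markers of brain outside the eye summed to 194 to 215 in DMSO and 136 to 178 with RA, and none passed. Without overlap 3 were lower and none higher, where 8.28% of all probe sets were lower and 6.98% higher. Of the 10, egr2b, dlx1a, en1b and en2b were at background on all arrays, and 2 were above it on all 6. The part of these tissues in the rise of cyp26a1, cyp26b1 and dhrs3a was not tested either. The lens gene cryaa was the only other marker that passed, higher with RA, among the lists for photoreceptors, other retinal cells, lens, pigment cells, skin, blood and vessel, and brain outside the eye.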

How the data were processed

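The deposited values were linear signal intensities, 1 for each probe set and array, which the authors had scaled to a mean of 125 on each array, trimmed of 2% of probe sets at either end. The methods describe RMA values, but these intensities are not on that log2 scale, and how they were summarised is not given in the sources used here. They were taken to log2 and compared with limma 3.58.1 (lmFit and eBayes, two-sided, Benjamini-Hochberg) in R 4.3.3 over 15555 probe sets. Left out were 62 generic control probe sets, whereas 53 control probe sets made for this zebrafish array were kept. Some of the 87 control probe sets behind the background are among those kept. With all of them left out, 130 probe sets passed in place of 131. The SAM test of the methods was not run. Gene symbols came from the platform's probe table, and gene order from RefSeq genes of assembly GRCz12tu. Every probe set of the 5 enzyme genes is shown, and other genes are represented by their brightest one. The other genes named are those of the lists that passed, up to 4 oxidoreductases with the largest changes, and all measured neighbours. The 3 genes most like each enzyme gene are named too, as are some listed genes without overlap, at background or reported by the study.

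Precision is limited by the number of arrays, 3 to a group. The pools of a clutch were siblings, per the methods, and their deviations from the group means correlated at 0.16, 0.42 and 0.28 for clutches 1, 3 and 4 (9791 probe sets), so the clutch was also used as a block. The enzyme genes and the lists were chosen with earlier results of these data known. The fitting was tested on simulated data. Alternatives were the block, array weights, a trend of the variance, quantile normalization, median centring, a filter and a floor at background, adding 16, control probe sets kept or left out, other FDRs, and leaving out arrays or clutches. The test was planned without Affymetrix controls, but the 53 made for this array were kept in it. The added comparison without any array control probe sets, and flooring signals for the likeness between genes, were chosen after the data were examined.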

Additional observations from a re-analysis of the deposited data

How the results depend on the processing

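With the clutch as a replicate block, 45 probe sets passed in place of 131, and no call of the 8 enzyme probe sets changed. The limma adjusted p of those called was larger with the block, at 0.031 to 0.055, against 0.00063 to 0.0088 without it. The count over all probe sets was 274 with a mean-variance trend, 593 with array weights, 272 among probe sets above background on at least 3 arrays, 232 with 16 added, 73 at an FDR of 5% and 291 at 20%. It ranged from 16 to 117 when an array or a clutch was left out: 74 without the DMSO array of clutch 3, 82, 52 and 56 without the RA array of clutch 1, 3 or 4, and 54, 19 and 16 without clutch 1, 3 or 4. Under all these settings cyp26a1, dhrs3a and 3 of the 4 cyp26b1 probe sets passed, and probe set D of cyp26b1 missed the threshold only without clutch 4 (fitted log2 difference 5.38, over a range of 5.11 to 5.99 with an array or clutch left out). These fitted values of D are no measured fold, since its DMSO pools were at background, and the difference was 3.28 with a floor at background and 2.93 with 16 added. The log2 fold change of aldh1a2 met the threshold with a trend and with the filter (-1.62 in both), with array weights (-1.34), with 16 added (-0.996) and at an FDR of 20% (-1.62), and cyp26c1 met it with array weights (fitted log2 difference 1.35, adjusted p = 0.046), which is likewise no measured fold, as 5 of its 6 arrays were at background. Median centring moved all log2 fold changes by 0.02.

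Differences between the probe sets of cyp26b1 turned where the dim probe set D was compared. The log2 fold changes of A, C and B minus that of D were -0.85, -1.02 and -1.79, became 1.44, 1.28 and 0.51 with a floor at background, and 1.24, 0.85 and 0.39 with 16 added. That of A minus C, 0.16, became -0.045 without clutch 3. The 4 pathway lists had no call with the block, median centring, quantile normalization, the filter or any single array left out. The other settings were not run on them. These include array weights, the trend and 16 added, which gave more calls over all probe sets, and leaving out a clutch.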
